A study of Mus musculus with 8 samples.

Results

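The genes described here are 9 receptor genes of natural killer (NK) cells, *Klra4*, *Klra7*, *Klra8*, *Klrb1c*, *Klrc1*, *Klrd1*, *Klre1*, *Klrk1* and *Ncr1*, chosen by symbol from the 32285 genes of the count matrices. They were measured by single-cell RNA sequencing of CD45+ cells from parental E0771 tumors and from tumors of the resistant lines E0771-Res1 and E0771-Res2. E0771 is a mammary carcinoma line of C57BL/6 mice, and the authors derived both resistant lines from relapsed E0771 tumors, treated before with paclitaxel combined with anti–PD-1. The tumors grew in the mammary fat pad of female C57BL/6 mice with an intact immune system and no stated gene alteration, and CD45+ cells were taken on day 18. Parental E0771 tumors came from 2 mice (replicates 1 and 3), E0771-Res1 tumors from 3 mice and E0771-Res2 tumors from 3 mice. The labels give no treatment of these 8 mice and no ages. Each resistant group stands for 1 derived line, so what is particular to a line and what is shared by resistant tumors cannot be told apart within a group. The question was in which cells each receptor was counted, and whether its level differed between parental and resistant tumors.

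NK cells decide whether to attack a cell by adding up signals from inhibitory and activating receptors, many of which bind MHC class I molecules or proteins related to them. In mice most of these receptors are C-type lectin-like proteins of the Ly49, NKR-P1 and CD94/NKG2 families, encoded side by side in the NK gene complex. Each NK cell switches on its own set of Ly49 genes, and effector CD8 T cells can also carry NKG2 receptors. NKp46, the product of *Ncr1*, is an immunoglobulin-like receptor and was listed with the others as a reference for NK cells.

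Of the 9 genes, 8 lie on chromosome 6 and *Ncr1* lies on chromosome 7 (GRCm38, GENCODE M21). From the centromere the order on chromosome 6 is *Klrb1c* (chr6:128778485-128789215, minus strand), *Klre1* (chr6:129577905-129585827, plus strand), *Klrd1* (chr6:129591782-129598775, plus strand), *Klrk1* (chr6:129610323-129623864, minus strand) and *Klrc1* (chr6:129666015-129678973, minus strand). The Ly49 genes follow as *Klra4* (chr6:130043731-130067271), *Klra8* (chr6:130115226-130129898) and *Klra7* (chr6:130218605-130233322), all on the minus strand. *Ncr1* spans chr7:4337724-4345164 on the plus strand. *Klrb1c* overlaps the gene model *Gm44511* on the same strand, so reads there can be split between them.

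The Ly49 genes are close copies of each other. The first 90 coding bases of the annotated transcripts are printed to show where these genes differ, with capitals where at least 1 of the 3 sequences differs. They are the start of the coding sequence, not the end that 3′ libraries read.
Klra4: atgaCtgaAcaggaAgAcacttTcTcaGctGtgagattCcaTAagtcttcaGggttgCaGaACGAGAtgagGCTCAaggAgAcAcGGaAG
Klra7: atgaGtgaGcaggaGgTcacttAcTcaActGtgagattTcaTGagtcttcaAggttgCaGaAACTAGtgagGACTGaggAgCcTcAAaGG
Klra8: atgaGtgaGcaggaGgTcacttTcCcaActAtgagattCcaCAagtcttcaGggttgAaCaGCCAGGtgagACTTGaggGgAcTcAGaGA
The 3 sequences differ at 32 of these 90 positions. Over the whole coding sequence *Klra4* and *Klra7* were identical at 84.3% of aligned bases, *Klra4* and *Klra8* at 78.6%, and *Klra7* and *Klra8* at 77.9%. Over the last 300 transcript bases, the end that 3′ libraries read, identity was 80.2%, 63.3% and 73.3% in the same order. Reads that match several of these genes could have been left out or assigned to the wrong copy, so the values of the 3 Ly49 genes are less certain than those of the others.

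Of 11430 deposited cells, 10605 were kept (500 to 6000 genes, under 10% mitochondrial counts), with 604 to 2020 per mouse. Unique molecular identifiers (UMIs, 1 per captured transcript) numbered 5036667 to 18894504 per mouse. Median UMIs per kept cell ran from 5589 to 8160 and were lowest in E0771-Res2 replicates 2 and 3. Marker gates that used none of the 9 genes assigned 162 cells to NK (10 to 38 per mouse), 147 to CD8 T (5 to 35), 262 to other T, which are T cells without *Cd8a* or *Cd8b1* (14 to 68), 3016 to C1qa-high macrophages and 4871 to C1qa-low myeloid cells. Median UMIs per cell ran from 4230 to 9173 in NK cells and from 6268 to 10760 in C1qa-high macrophages. The 8 NK gate genes together reached 16103 to 31438 CPM (UMI counts of summed cells scaled to a common library total) in NK cells of each mouse, 4837 to 10162 in CD8 T cells and 189 to 444 in C1qa-high macrophages. The B cell marker *Ms4a1* was at 0 in NK cells, whereas the 4 monocyte markers, which include *Plac8*, a gene that NK cells also express, summed to 1062 to 3018 CPM. No cell barcode was shared between mice.

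Ly49D (*Klra4*) and Ly49H (*Klra8*) are activating receptors, the latter known for binding a protein of mouse cytomegalovirus, and Ly49G (*Klra7*) is inhibitory. NK1.1 (*Klrb1c*) is an activating receptor used to recognize NK cells in C57BL/6 mice. These 4 genes and *Ncr1* were counted in NK cells and were low or absent in CD8 T cells. At an equal depth of 2000 UMIs per cell, the median share of NK cells with a UMI over the 8 mice was 22.5% for *Klra4*, 43.3% for *Klra7*, 25.5% for *Klra8*, 45.4% for *Klrb1c* and 45.8% for *Ncr1*. In CD8 T cells the median was 0% for each of them. In C1qa-high macrophages, which should lack these receptors, the medians were 0.346% to 0.597%, and those of other T cells were 0% to 4.63%.

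*Klra4* had no UMI in the CD8 T cells of the 6 mice with at least 10 cells of both classes, which allows up to 3.28 CPM there (3 counts over the 6 mice), and it was at least 107-fold higher in NK cells. *Klra8* had 236 UMIs in NK cells and 2 in CD8 T cells of those mice, a ratio of 148 in CPM with an exact 95% interval of 40.6 to 1233 that covers counting error only. Within mice, the log2 fold change of NK over CD8 T cells was 5.35 (SE 0.41) for *Klra7*, 5.80 (SE 0.39) for *Klrb1c* and 6.04 (SE 0.44) for *Ncr1*. The edgeR quasi-likelihood test with mouse as a block called 6 of the 9 receptor genes higher in NK than in CD8 T cells (adjusted p under 0.05), where 11.9% of the 2281 genes tested were called and 6.88% were called higher. For *Klra4*, *Klra7*, *Klra8*, *Klrb1c* and *Ncr1* the filter on low counts was passed through the NK cells, where they are high, so nothing is read from that count. All 7 *Ncr1* UMIs of CD8 T cells lay in 2 cells, and 17 of their 21 *Klra7* UMIs lay in 3 cells.

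**Figure D1:**
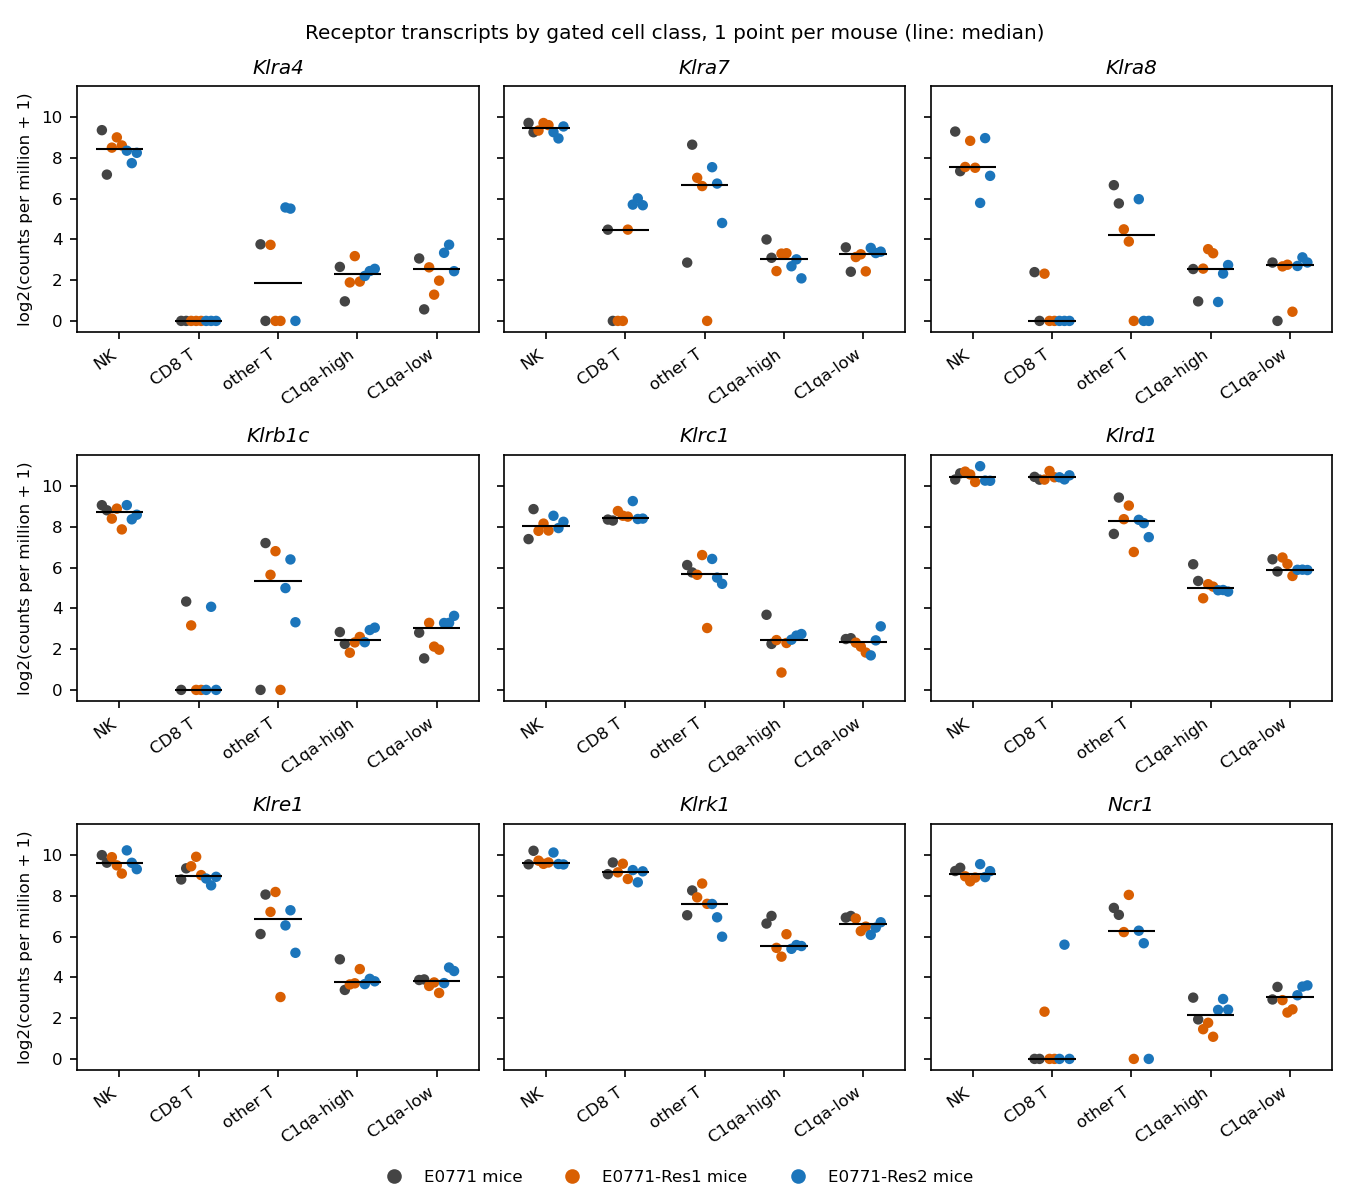
Level of each receptor gene as log2(CPM + 1) of summed cells in NK cells, CD8 T cells, other T cells, C1qa-high macrophages and C1qa-low myeloid cells, with 1 point per mouse colored by tumor line and a line at the median of the 8 mice. *Klra4* lies at 0 in CD8 T cells of all mice, while *Klrd1*, *Klre1* and *Klrk1* lie nearly as high in CD8 T cells as in NK cells. *Klrc1* was at 366 CPM in CD8 T cells and 247 CPM in NK cells, pooled over the 6 mice with at least 10 cells of both classes.

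The CD94/NKG2 group and its neighbors were shared between NK and CD8 T cells. CD94 (*Klrd1*) pairs with NKG2A (*Klrc1*) to form an inhibitory receptor for the nonclassical MHC class I molecule encoded by *H2-T23*, NKG2D (*Klrk1*) is an activating receptor for stress-induced ligands, and *Klre1* encodes a further lectin-like receptor. At 2000 UMIs per cell, the median share of cells with a UMI was 30.4% in NK and 28.6% in CD8 T cells for *Klrc1*, 72.1% and 66.8% for *Klrd1*, 65.2% and 42.8% for *Klre1*, and 66.2% and 49.3% for *Klrk1*. Within mice, *Klrk1* was higher in NK than in CD8 T cells (log2 fold change 0.68, SE 0.15, edgeR adjusted p = 0.00658). *Klre1* (0.58, SE 0.20, edgeR adjusted p = 0.0743), *Klrd1* (0.13, SE 0.14, adjusted p = 0.653) and *Klrc1* (-0.41, SE 0.19, adjusted p = 0.197) did not pass. The *Klrk1* call was lost with DESeq2 (0.65, adjusted p = 0.0517) and without the limit on myeloid counts in the gates (0.34, edgeR adjusted p = 0.0728). *Klrc1* was called lower in NK cells without parental replicate 3 (-0.61, edgeR adjusted p = 0.0391), and *Klre1* was called higher without E0771-Res1 replicate 2 (0.73, edgeR adjusted p = 0.0222).

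CD8 T cells were in turn higher than other T cells in the same 4 genes. The log2 fold changes within 6 mice were 2.85 (SE 0.25) for *Klrc1*, 2.10 (SE 0.23) for *Klrd1*, 2.09 (SE 0.28) for *Klre1* and 1.39 (SE 0.16) for *Klrk1*. These were the 4 receptor genes with enough counts to test, and edgeR called each of them, where 15.3% of all genes tested were called and 6.73% were called higher. Such genes can pass the filter on low counts through the CD8 T cells, where they are high, so nothing is read from that count. NK cells were compared with other T cells within 8 mice. All 9 receptor genes were called higher in NK cells, with log2 fold changes from 2.23 for *Klrk1* (SE 0.19) to 4.41 for *Klra4* (SE 0.41). Of 2250 genes tested, 15.5% were called and 6.71% were called higher. *Klra4* and *Klra8* were too low in other T cells to be tested between tumors there, and passed the filter here through NK cells. Nothing is therefore read from the count of 9. *Klrd1* CPM in other T cells ran from 108 in E0771-Res1 replicate 3 to 694 in parental replicate 3, below each of the NK values of 1180 to 2021.

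The receptor counts of other T cells lay in few cells. The 21 of 262 cells with a UMI of *Ncr1* or *Klrb1c* held 95.2% of the *Klra7* UMIs of this class, 88.3% of those of *Klre1*, 73.5% of those of *Klrd1*, 62.9% of those of *Klrc1* and 60.8% of those of *Klrk1*. Of the other T cells, 119 had a UMI of *Foxp3*, the lineage factor of regulatory T cells. *Klrk1* was detected in 12.6% of these and in 34.3% of the 143 without *Foxp3*, *Klrd1* in 9.24% and 32.2%, and *Ncr1* in 0.84% and 9.09%. These shares were pooled over mice, without thinning, and were not tested.

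In NK cells the 3 Ly49 genes were found in varied combinations. No Ly49 UMI of these genes was seen in 68 of 162 NK cells (42.0%), 1 gene was seen in 37 (22.8%), 2 genes in 45 (27.8%) and all 3 in 12 (7.41%). *Klra7* alone was seen in 21 cells, *Klra7* with *Klra8* in 22, *Klra4* with *Klra7* in 20, *Klra8* alone in 11, *Klra4* alone in 5, and *Klra4* with *Klra8* in 3. *Klra7* was detected in 80.0% of *Klra4*-positive and in 35.2% of *Klra4*-negative NK cells, and *Klra8* in 45.3% of *Klra7*-positive and in 16.1% of *Klra7*-negative NK cells. These are descriptions over pooled cells, and the part of reads shared by close copies in them was not tested.

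*Klrc1* and *Klrd1*, whose proteins form 1 receptor, were also detected together. *Klrd1* was seen in 95.5% of *Klrc1*-positive NK cells and in 64.9% of the others. Such a gap was not particular to this pair. *Klrd1* was seen in 90.5% of *Klrb1c*-positive and in 58.7% of *Klrb1c*-negative NK cells, and *Klre1* in 90.9% of *Klrd1*-positive and 40.0% of *Klrd1*-negative ones. *Ncr1* was seen in 83.3% of *Klre1*-positive and in 16.7% of *Klre1*-negative NK cells. *Klrc1* was seen in 42.5% of *Klra4*-positive and in 58.2% of *Klra4*-negative NK cells. Joint detection moved with depth: the 12 NK cells without a UMI of any receptor gene had a median of 2281 UMIs, and the 42 cells with 7 receptor genes had a median of 8312. The part of depth in these pairings was not tested.

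**Figure D2:**
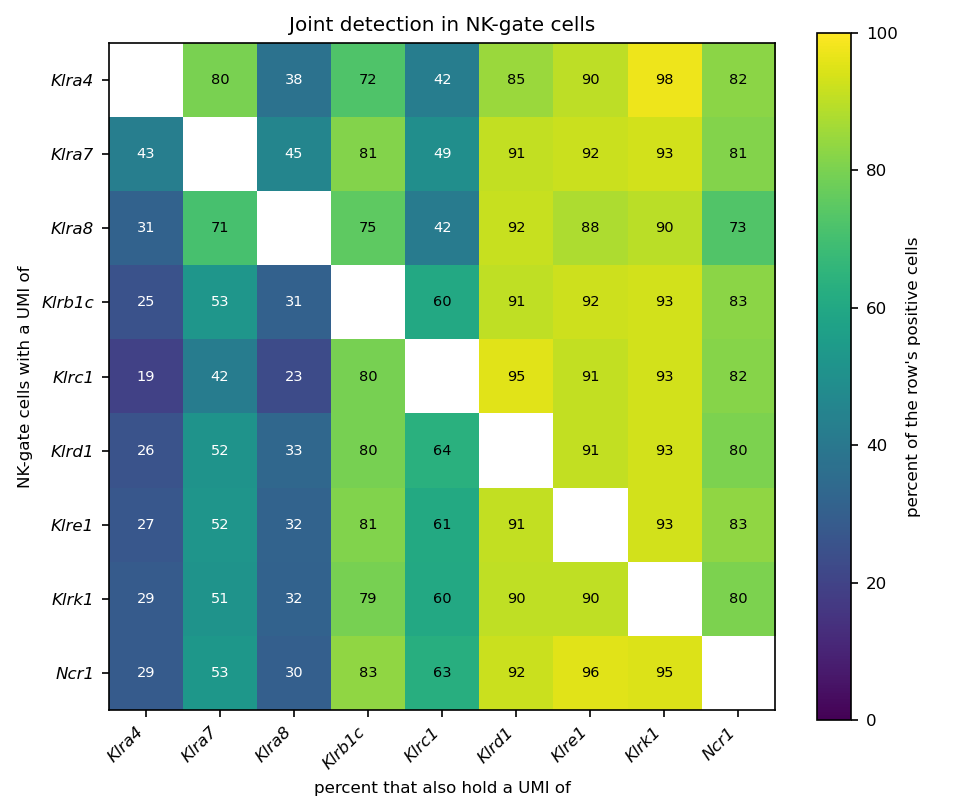
Joint detection of the 9 receptor genes in the 162 NK cells, pooled over 8 mice and not thinned, as the percent of cells positive for the row gene that also had a UMI of the column gene. *Klrd1*, *Klre1* and *Klrk1* were seen in most cells of each row (85.0% of *Klra4*-positive cells had *Klrd1*), and among the Ly49 genes *Klra7* was seen in 80.0% of *Klra4*-positive cells.

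NK cells of parental and resistant tumors were then compared. NK cells made up 1.88% ± 0.385 (SD, n = 2) of kept cells in parental tumors and 1.60% ± 0.68 (SD, n = 6) in resistant tumors, a difference of -0.279 percentage points (two-sided exact permutation test over 28 splits, p = 0.679). None of the 9 receptor genes was called between tumors in NK cells. edgeR called 0 of 9 in each of the 3 comparisons, where it called 0% of the 2376 genes tested. At an unadjusted p under 0.05 it counted 161 genes for E0771-Res1 against parental, 212 for E0771-Res2 against parental and 124 between the resistant lines, none of them a receptor gene, and DESeq2 also called 0 genes. With 10 to 38 NK cells per mouse the standard errors of the receptor genes ran from 0.22 to 0.73 on the log2 scale, and a missed call does not show that the levels were alike.

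The activating Ly49 genes varied widely between mice of 1 group. *Klra8* stood at 627 and 162 CPM in parental replicates 1 and 3, at 187, 457 and 182 CPM in E0771-Res1 replicates 1 to 3, and at 54.4, 501 and 138 CPM in E0771-Res2 replicates 1 to 3. The groups overlapped fully, and the E0771-Res2 values rested on few cells: 1 positive cell in replicate 1, and 1 cell with 35 of the 94 UMIs in replicate 2. The log2 fold change was -0.75 (SE 0.73) for E0771-Res1 and -0.63 (SE 0.71) for E0771-Res2 against parental. Without parental replicate 1 both directions turned, to 0.64 and 0.78, and without E0771-Res2 replicate 2 the E0771-Res2 value was -2.16. Between the resistant lines *Klra8* was at 0.12 (SE 0.63) and turned to -1.43 without E0771-Res2 replicate 2, while strict gates gave a call at 1.84 (edgeR adjusted p = 0.00499). *Klra4* stood at 658 and 144 CPM in parental, 362, 514 and 390.4 in E0771-Res1 mice, and 326, 213 and 304 in E0771-Res2 tumors. All resistant values of *Klra4* lay between the parental ones, and the resistant lines did not overlap (log2 fold change of E0771-Res2 over E0771-Res1 -0.52, SE 0.37, edgeR adjusted p = 0.864). The inhibitory *Klra7* was at 841 and 612 CPM in parental, 649, 838 and 781 in E0771-Res1 mice, and 614, 496 and 746 in E0771-Res2 tumors, and only E0771-Res2 replicate 2 lay below both parental mice.

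The NKG2 genes and *Klre1* showed no separation of the tumors either. *Klrd1* ranged from 1284 to 1585 CPM in parental, from 1180 to 1681 in E0771-Res1 mice and from 1229 to 2021 in E0771-Res2 tumors. *Klrc1* was at 168 and 468 CPM in the parental mice, and the 6 resistant mice lay between them at 223 to 373. *Klrk1* was at 749 and 1189 CPM in parental, 848, 762 and 798 in E0771-Res1 mice, and 1119, 757 and 746 in E0771-Res2 tumors, so 1 resistant mouse was below the parental range. The log2 fold change of *Klrk1* in NK cells was -0.25 (SE 0.26) for E0771-Res1 and -0.08 (SE 0.26) for E0771-Res2 against parental. *Klre1* ranged from 792 to 1024 CPM in parental, from 547 to 956 in E0771-Res1 mice and from 635 to 1205 in E0771-Res2 tumors. For all 4 genes the groups overlapped.

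*Ncr1* was at 596 and 666 CPM in NK cells of parental tumors, 498, 419 and 477 in E0771-Res1 mice, and 754, 485 and 594 in E0771-Res2 tumors. The E0771-Res1 values did not overlap the parental ones, but the log2 fold change of -0.42 (SE 0.25) did not pass (edgeR adjusted p = 0.722). Between resistant lines, *Ncr1* was 0.42 higher on the log2 scale in E0771-Res2 (SE 0.22, edgeR adjusted p = 0.85). *Klrb1c* was at 535 and 450.2 CPM in parental, 339, 476 and 234 in E0771-Res1 mice, and 536, 331 and 387 in E0771-Res2 tumors, with a log2 fold change of -0.56 (SE 0.32) for E0771-Res1 against parental.

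**Figure D3:**
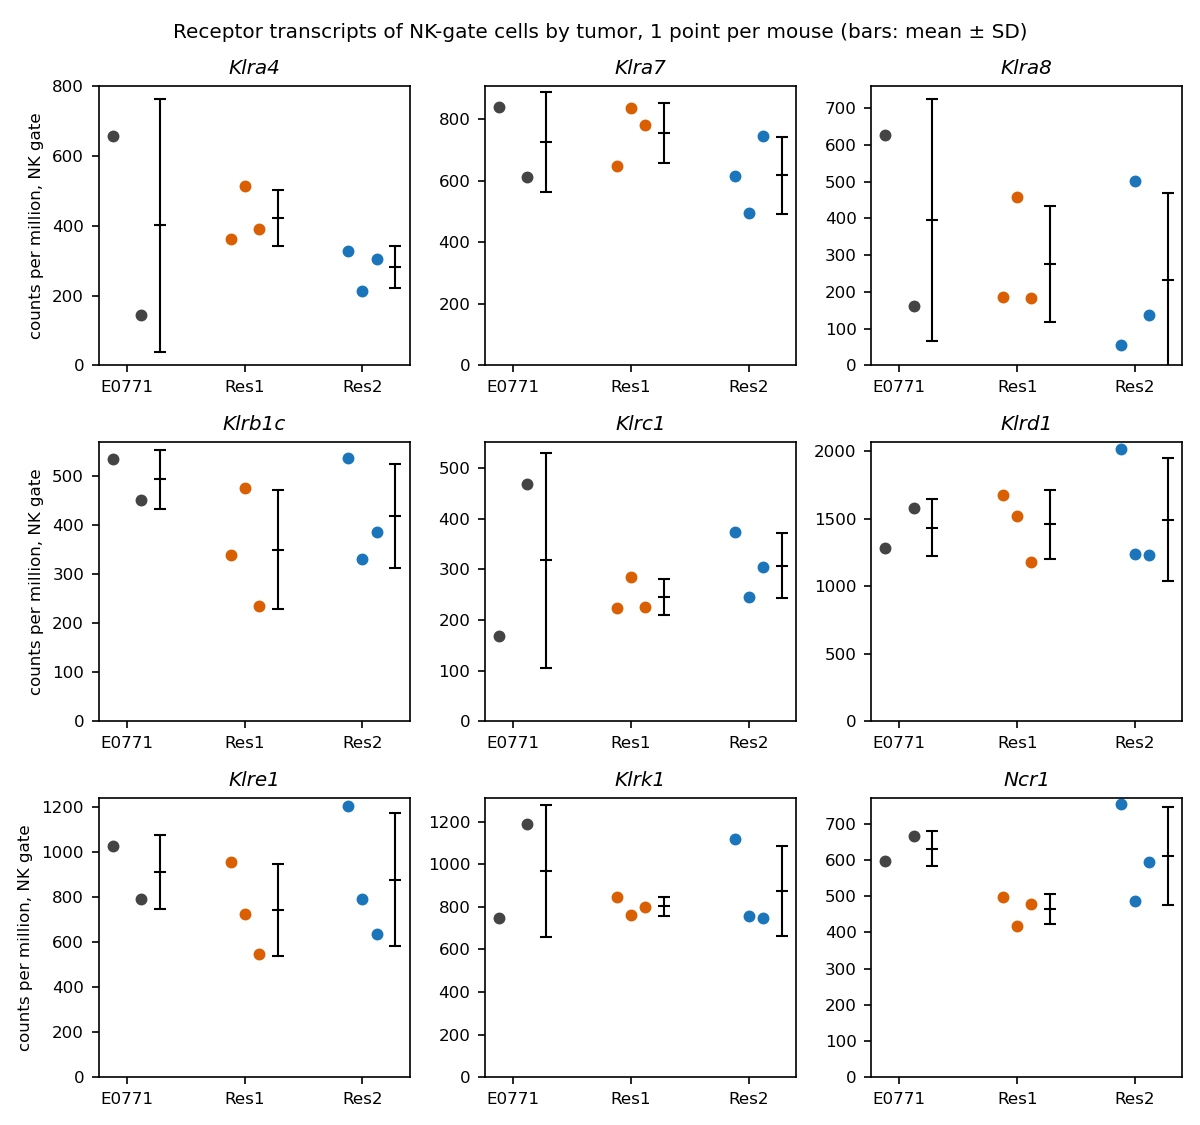
CPM of each receptor gene in NK cells by tumor line, with 1 point per mouse (2 parental, 3 E0771-Res1, 3 E0771-Res2), a tick at the mean and error bars of 1 SD, which are cut off at 0 where they pass below it (*Klra8* in E0771-Res2). Parental mice overlap with each resistant line for all genes except *Ncr1* in E0771-Res1 (419 to 498, against 596 and 666), and the resistant lines overlap for all genes except *Klra4* (362 to 514 in E0771-Res1 mice and 213 to 326 in E0771-Res2). The share of all genes without overlap is not given, so nothing is read from these exceptions.

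The share of NK cells with a UMI was compared at 2000 UMIs per cell, which left 149 NK cells (3 parental, 6 E0771-Res1 and 4 E0771-Res2 cells were too shallow). *Ncr1* was detected in 64.2% ± 0.756 (SD, n = 2) of parental and 45.9% ± 9.42 (SD, n = 6) of resistant NK cells. That difference of -18.3 percentage points had the smallest p that 28 splits allow (two-sided exact permutation test, p = 0.0357) and did not pass over the 9 genes (exact permutation test, adjusted p = 0.321). It also rested on the random draw of UMIs: in a second draw at the same depth, *Ncr1* was detected in 47.1% and 45.5% of parental NK cells and in 40.0% to 81.2% of those of resistant mice, with E0771-Res2 replicate 1 the highest of all 8, so parental and resistant mice overlapped. The other 8 genes had adjusted p of 0.505 to 0.893 in the same exact test, among them *Klre1* with 82.1% ± 0.378 (n = 2) and 68.0% ± 11.3 (n = 6). Without thinning, the lowest p of any gene was 0.107 (exact permutation test).

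T cells gave no call for any receptor gene between tumors. In CD8 T cells, with 6 mice of at least 10 cells and only 1 of them from E0771-Res2, 4 receptor genes could be tested and 0 were called, where 0.0787%, 0.0262% and 0% of 3811 genes were called for E0771-Res1 and E0771-Res2 against parental and between the resistant lines. *Klrd1* CPM in CD8 T cells was 1278 to 1405 in parental, 1280 to 1716 in E0771-Res1 mice and 1289 in the E0771-Res2 mouse tested, so the groups overlapped. *Klre1* was at 447 and 654 CPM in parental, 702, 968 and 519 in E0771-Res1 mice and 366 in that E0771-Res2 mouse, whose spread is taken from the other groups (log2 fold change between resistant lines -0.97, SE 0.35, edgeR adjusted p = 0.956). In other T cells 7 receptor genes were tested and 0 were called, where 0%, 0.208% and 0.0594% of 3369 genes were called in the same order. At an unadjusted p under 0.05, edgeR counted *Klre1* in CD8 T cells and *Klrk1* in other T cells, both between the resistant lines and no other receptor gene, and DESeq2 called 0 receptor genes in these comparisons.

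*Klrk1* was the receptor gene with the largest share of its counts outside the NK and T gates. NKG2D is best known on NK and CD8 T cells, and in mice it has also been described on activated macrophages. Of 7576 *Klrk1* UMIs in kept cells, 10.6% lay in NK cells, 7.54% in CD8 T cells, 16.5% in C1qa-high macrophages, 36.8% in C1qa-low myeloid cells and 25.5% outside these classes. Of 7955 *Klrd1* UMIs, 17.5% lay in NK cells, 9.23% in C1qa-high macrophages, 23.9% in C1qa-low myeloid cells and 27.5% outside these classes. Of 1222 *Ncr1* UMIs, 41.7% lay in NK cells, 6.96% in C1qa-high macrophages, 18.2% in C1qa-low myeloid cells and 24.5% outside these classes. The limit on myeloid counts kept 216 NK-like cells out of the NK gate, so counts outside the gates can include those of lymphocytes.

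The ratio between receptor genes differed between NK and myeloid cells. NK cells held 1.57 *Klrk1* UMIs per *Ncr1* UMI, C1qa-high macrophages 14.7 and C1qa-low myeloid cells 12.5. For *Klrd1* these ratios were 2.73, 8.64 and 8.52, and for *Klra7* they were 1.20, 1.75 and 1.11. The ratios of *Klre1* were 1.57, 3.89 and 1.80, and those of *Klrc1* 0.491, 1.41 and 0.543. For *Klra8* they were 0.497, 1.25 and 0.650, for *Klrb1c* 0.699, 1.27 and 0.937, and for *Klra4* 0.625, 1.05 and 0.780. Each ratio was thus higher in C1qa-high macrophages than in NK cells. C1qa-high macrophages held only 85 *Ncr1* UMIs, and their *Klrk1* ratio ran from 7.07 in E0771-Res2 replicate 2 to 61.0 in E0771-Res1 replicate 3. The part of free RNA and of captured lymphocytes in the myeloid counts was not tested. At 2000 UMIs per cell, the median share of cells with a *Klrk1* UMI was 8.13% in C1qa-high macrophages and 12.1% in C1qa-low myeloid cells, against 0.459% and 0.607% for *Ncr1*.

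*Klrk1* was lower in C1qa-high macrophages than in C1qa-low myeloid cells of the same mouse. In C1qa-high macrophages it stood at 99.0 and 129 CPM in parental replicates 1 and 3, at 42.7, 31.4 and 68.6 in E0771-Res1 replicates 1 to 3, and at 41.3, 47.2 and 45.5 in E0771-Res2 replicates 1 to 3. In C1qa-low myeloid cells it stood at 121 and 128 CPM in parental, 118, 76.4 and 89.0 in E0771-Res1 mice, and 67.0, 86.0 and 104 in E0771-Res2 tumors. C1qa-low cells were higher in 7 of 8 mice, with parental replicate 3 the exception, and the log2 fold change of C1qa-high over C1qa-low was -0.90 (SE 0.12, edgeR adjusted p = 5.34e-06). *Klrd1* (-1.12, SE 0.14), *Ncr1* (-1.15, SE 0.21), *Klrb1c* (-0.74, SE 0.23) and *Klra4* (-0.70, SE 0.27) were also called lower, 5 of 9 receptor genes in all, where 55.1% of 9405 genes were called and 26.3% were called lower.

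In C1qa-high macrophages *Klrk1* was lower in both resistant lines than in parental tumors. Each of the 6 resistant mice, at 31.4 to 68.6 CPM, lay below both parental mice, at 99.0 and 129 CPM. The share of all genes that separate these mice is not given, so nothing is read from such a separation here or below. The log2 fold change was -1.24 (SE 0.21, edgeR adjusted p = 0.0241) for E0771-Res1 and -1.34 (SE 0.21, edgeR adjusted p = 0.00249) for E0771-Res2. Between the resistant lines it was -0.10 (SE 0.20, edgeR adjusted p = 0.848). edgeR called 2 of 9 receptor genes against parental in each line, where it called 0.951% of 9568 genes for E0771-Res1 (0.533% lower) and 2.73% for E0771-Res2 (1.69% lower), and 0 of 9 between the lines, where it called 3.98%. At an unadjusted p under 0.05, edgeR also counted *Ncr1* (-1.68), *Klrc1* (-1.27) and *Klra7* (-0.94) lower in E0771-Res1 than in parental macrophages. For E0771-Res2 these were *Klra7* (-1.27) and *Klre1* (-0.75), and none was higher against parental at that p. Between the lines 1 receptor gene had an unadjusted p under 0.05, *Ncr1* at 1.49. The share of all genes at that p is not given, so nothing is read from these genes. DESeq2 called 2, 2 and 0 receptor genes in these 3 comparisons. The *Klrk1* fits were repeated with each mouse left out. The E0771-Res1 call was lost without parental replicate 3 (-1.05, edgeR adjusted p = 0.158), E0771-Res1 replicate 1 (-1.09, adjusted p = 0.0967) or E0771-Res1 replicate 2 (-1.11, adjusted p = 0.0605), while the E0771-Res2 call stayed with each mouse left out (highest adjusted p = 0.0493).

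*Klrd1* was the other gene called in C1qa-high macrophages. It was at 70.9 and 39.7 CPM in parental, 21.6, 35.5 and 32.6 in E0771-Res1 mice, and 28.7, 28.9 and 27.4 in E0771-Res2 tumors. All resistant mice thus lay below both parental mice, from which nothing is read either. The log2 fold change was -1.10 (SE 0.23, edgeR adjusted p = 0.0375) for E0771-Res1 and -1.05 (SE 0.22, edgeR adjusted p = 0.0199) for E0771-Res2. Without parental replicate 1 these fell short of the threshold at -0.56 (edgeR adjusted p = 0.513) and -0.52 (adjusted p = 0.463). The E0771-Res1 call was also lost without E0771-Res1 replicate 1 (-0.79, edgeR adjusted p = 0.203) or replicate 2 (-1.22, adjusted p = 0.0619) and without any 1 of the E0771-Res2 mice (adjusted p = 0.067 to 0.077). The E0771-Res2 call was lost without any 1 of the E0771-Res2 mice (edgeR adjusted p = 0.0611 to 0.081). They were also lost among macrophages without any UMI of the NK and T gate genes, an alternative chosen after the data were seen (-0.63 and -0.87, edgeR adjusted p = 0.639 and 0.323). *Ncr1* was at 7.04 and 2.84 CPM in parental, 1.12 to 2.42 in E0771-Res1 mice and 4.29 to 6.67 in E0771-Res2 macrophages, and was not called.

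Among the same macrophages without NK and T gate genes, *Klrk1* kept its difference, with a log2 fold change of -1.50 (edgeR adjusted p = 0.0166) for E0771-Res1 and -1.82 (adjusted p = 0.000407) for E0771-Res2. The NK gate genes summed to 225 to 444 CPM in C1qa-high macrophages of parental, 189 to 325 of E0771-Res1 and 282 to 402 of E0771-Res2 tumors, and these ranges overlapped. The 4 monocyte markers (*Ly6c2*, *Vcan*, *Plac8*, *Fn1*) did move with *Klrk1*, at 2637 to 3499 CPM in parental, 1323 to 2022 in E0771-Res1 mice and 1662 to 1901 in E0771-Res2 macrophages, none of them at 0. The 5 dendritic cell markers were at 52.4 to 91.7, 27.0 to 51.6 and 22.1 to 42.3 CPM in the same order. The part of these cells in the *Klrk1* result was not tested.

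The share of *Klrk1*-positive C1qa-high macrophages gave the same order. At 2500 UMIs per cell, 17.0% and 14.4% were positive in parental replicates 1 and 3, 7.54%, 5.43% and 10.6% in E0771-Res1 replicates 1 to 3, and 5.93%, 5.81% and 6.11% in E0771-Res2 replicates 1 to 3. All resistant mice lay below both parental mice, with 24 parental, 61 E0771-Res1 and 131 E0771-Res2 macrophages too shallow to be used. The means were 15.7% ± 1.84 (SD, n = 2) and 6.90% ± 1.93 (SD, n = 6), a difference of -8.81 percentage points with the smallest p that 28 splits allow (two-sided exact permutation test, p = 0.0357). This test, like those of the C1qa-low cells below, was chosen after the data were seen. Without thinning the means were 38.1% and 19.2%, and *Ncr1* was positive in 2.89% and 1.48% of the same cells. *Klrd1* was positive in 5.17% ± 0.126 (n = 2) and 3.91% ± 1.25 (n = 6) at 2500 UMIs (exact permutation test, p = 0.357).

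Along the range of *C1qa*, which encodes a subunit of complement C1q, the gap between tumors was larger in the C1qa-high bins than in the lowest ones. Below 1 *C1qa* UMI per 10000, *Klrk1* averaged 1.06 UMIs per 10000 in parental, 0.796 in E0771-Res1 mice and 0.761 in E0771-Res2 mice. At 10 to 20 *C1qa* UMIs per 10000 the means were 1.27, 0.559 and 0.502, at 20 to 40 they were 0.984, 0.458 and 0.404, and at 40 or more they were 0.689, 0.268 and 0.226. Parental and resistant mice overlapped only in the bin of 1 to 5, with means of 0.860, 0.711 and 0.640. The bin of 5 to 10 held only 51 parental cells and had the highest parental mean, 1.88, against 0.864 in E0771-Res1 and 0.593 in E0771-Res2 mice. The widest gap of all bins thus lay below the C1qa-high cut.

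In C1qa-low myeloid cells the fitted differences were smaller and neither passed. *Klrk1* had a log2 fold change of -0.38 (SE 0.17, edgeR adjusted p = 0.524) for E0771-Res1 and -0.58 (SE 0.17, edgeR adjusted p = 0.0576) for E0771-Res2 against parental, where 0.121% and 6.05% of 9925 genes were called. DESeq2 called 0 receptor genes for E0771-Res1 and 1 for E0771-Res2, *Klrk1*. Between the resistant lines it was -0.20 (SE 0.15, edgeR adjusted p = 0.535), where 5.09% were called. At 2500 UMIs per cell, 17.9% ± 2.57 (n = 2) of parental and 12.2% ± 2.96 (n = 6) of resistant C1qa-low cells were positive (exact permutation test, p = 0.0714). Without thinning the means were 36.3% and 24.9%, and among cells without NK and T gate genes they were 20.3% and 12.7% at 2500 UMIs, each with the smallest p that 28 splits allow (exact permutation test, p = 0.0357). Whether the change in C1qa-high cells differed from that in C1qa-low cells was not tested.

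**Figure D4:**
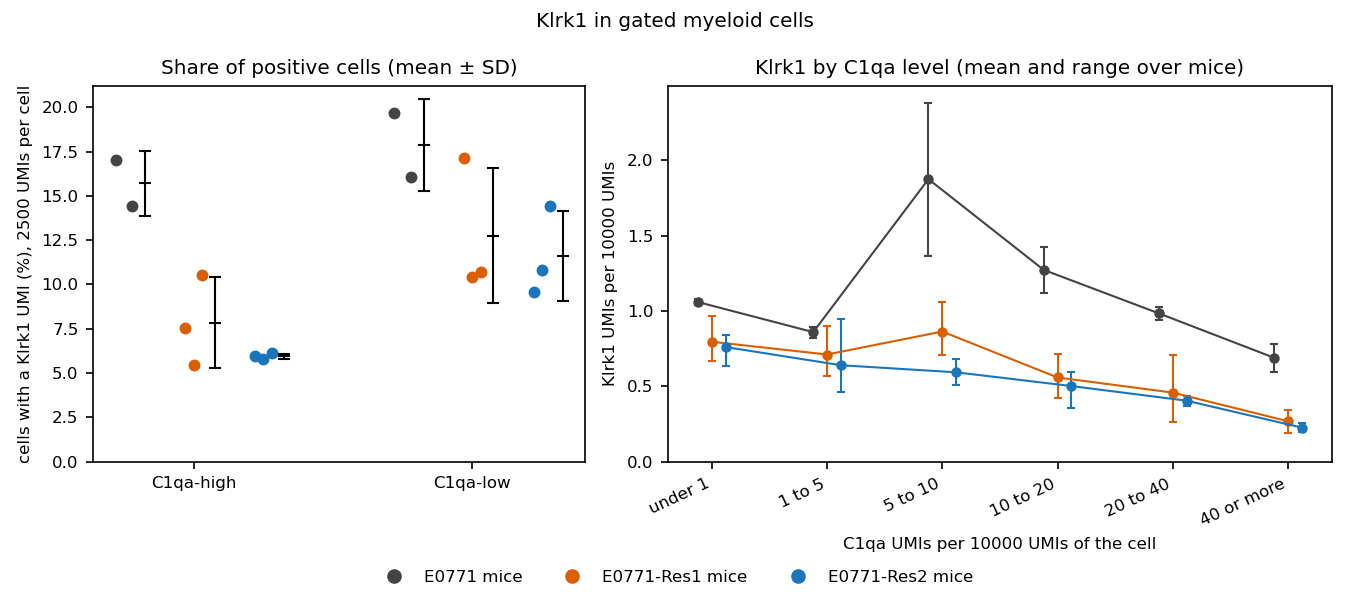
*Klrk1* in myeloid cells by tumor line: the percent of cells with a UMI at 2500 UMIs per cell in C1qa-high and C1qa-low cells (points are mice, ticks are means, error bars are 1 SD), and *Klrk1* UMIs per 10000 in bins of *C1qa* UMIs per 10000 (mean and range over mice). Parental C1qa-high macrophages lie at 14.4% and 17.0% and all resistant ones at 5.43% to 10.6%, and the parental mean lies above both resistant means in each *C1qa* bin.

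In the summed counts of all CD45+ cells, *Klrk1* was at 153 and 163 CPM in parental, 119, 95.1 and 126 in E0771-Res1 mice, and 81.6, 113 and 96.8 in E0771-Res2 tumors. Here too, all resistant mice lay below both parental mice, from which nothing is read. It was called for E0771-Res2 (log2 fold change -0.72, SE 0.13, edgeR adjusted p = 0.0107) and not for E0771-Res1 (-0.48, SE 0.13, edgeR adjusted p = 0.22). It was 1 of 9 receptor genes called for E0771-Res2, where 4.35% of 11313 genes were called and 2.24% were called lower. For E0771-Res1 and between the resistant lines 0 of 9 were called, where 0.0354% and 4.2% of genes were called. At an unadjusted p under 0.05 edgeR counted 1 and 3 receptor genes in those comparisons, and DESeq2 called 0. The call rested on both parental mice, since it was lost without parental replicate 1 (-0.78, edgeR adjusted p = 0.0747) and without parental replicate 3 (-0.65, edgeR adjusted p = 0.133). In such sums, fewer cells of a type and less RNA per cell cannot be told apart.

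The genes expressed in T and NK cells behaved less uniformly in the summed counts. For E0771-Res2 against parental, *Klrc1* had a log2 fold change of -0.63 (edgeR adjusted p = 0.0943), *Klrd1* of -0.55 (adjusted p = 0.0598), *Klre1* of -0.46 (adjusted p = 0.163) and *Ncr1* of -0.03 (adjusted p = 0.972). Without E0771-Res2 replicate 2, *Klrc1*, *Klrd1* and *Klre1* passed as well (-0.82, -0.72 and -0.69, edgeR adjusted p = 0.0281, 0.00792 and 0.00969). CD8 T cells made up 2.63% ± 0.686 (SD, n = 2) of kept cells in parental and 1.26% ± 0.744 (SD, n = 6) in resistant tumors of both lines (two-sided exact permutation test, p = 0.0714). The share was 0.271%, 1.32% and 0.459% in E0771-Res2 replicates 1 to 3, and 1.73%, 1.66% and 2.13% in E0771-Res1 replicates 1 to 3. Each E0771-Res2 mouse thus lay below all parental and E0771-Res1 mice. That was the direction of these genes in E0771-Res2, and the part of the CD8 T cell share in them was not tested.

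The other lectin-like genes of the family were counted beside the 9. Of 24 listed, 7 had enough counts to compare NK with other T cells, and 6 were called higher. Of all 2250 genes tested, 6.71% were called higher. Among the 6 were *Klra3* at 3.35 (SE 0.58), *Klrb1b* at 3.32 (SE 0.33), *Klri2* at 2.72 (SE 0.33) and *Klra9* at 2.55 (SE 0.31) on the log2 scale. The median of the 7 was 2.55, beside 0.00 over all genes tested. Against CD8 T cells 3 of 5 were called higher, where 6.88% of 2281 genes were. Such genes can pass the filter on low counts through the NK cells, where they are high. Nothing is therefore read from these counts or the median. Between tumors 0 of 9 were called in NK cells, where 0% of 2376 genes were called. In C1qa-high macrophages *Klra17* (Ly49Q, found on plasmacytoid dendritic cells and macrophages) and *Klra2* were 2 of 9 called lower in E0771-Res2 than in parental tumors, at -1.34 (SE 0.33, edgeR adjusted p = 0.0417) and -0.58 (SE 0.11, edgeR adjusted p = 0.00768). Of all 9568 genes tested there, 1.69% were called lower. *Klra2* was also lower than parental in E0771-Res2 C1qa-low cells (-0.54, edgeR adjusted p = 0.0169) and all CD45+ cells (-0.52, adjusted p = 0.0201). *Klra3* went the other way in those C1qa-low cells (1.51, edgeR adjusted p = 0.00908). In C1qa-high macrophages *Klra3* was higher in E0771-Res2 than in E0771-Res1 (1.55, edgeR adjusted p = 0.00152). There 3.98% of all genes were called, against 6.05% in the C1qa-low and 4.35% in the CD45+ comparison. *Klra17* was higher in C1qa-high than in C1qa-low cells (0.98, SE 0.18), unlike *Klrk1*, while *Klra2* was lower (-0.68, SE 0.05).

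Adaptors that carry the signal of activating receptors separated NK from CD8 T cells. Of 12 adaptor and signalling genes tested (17 listed), 4 were higher and 3 lower in NK cells. Of all 2281 genes tested, 11.9% were called and 6.88% were called higher. Genes can pass the filter on low counts through the class where they are high, so nothing is read from these counts or the median of the list. *Tyrobp*, which encodes DAP12, the partner of activating Ly49 receptors, was 3.60 higher (SE 0.17), and *Fcer1g*, the partner of NKp46 and NK1.1, was also higher than in CD8 T cells and stood 1.96 (SE 0.14) above other T cells on the log2 scale. *Lat*, an adaptor of the T cell receptor, was lower at -2.64 (SE 0.22), and *Inpp5d*, a phosphatase recruited by inhibitory receptors, was higher at 1.45 (SE 0.34). The median of the list was -0.29, beside -0.02 over all genes. None of the 17 was called between parental and resistant C1qa-high macrophages, where 0.951% and 2.73% of genes were called for E0771-Res1 and E0771-Res2. None of the 12 tested in NK cells was called between tumors, where 0% of genes were called.

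The ligands included H2-T23, which binds CD94/NKG2A. In C1qa-high macrophages of E0771-Res1 tumors 2 of 12 ligand genes tested were lower than in parental tumors, *H2-Q4* at -0.62 (SE 0.11, edgeR adjusted p = 0.0272) and *H2-T23* at -0.52 (SE 0.11, edgeR adjusted p = 0.0385), and in E0771-Res2 tumors 0 of 12 were called. Of all 9568 genes tested, 0.951% were called for E0771-Res1 (0.533% lower) and 2.73% for E0771-Res2. The median of the list was -0.26 for E0771-Res1, beside 0.00 over all genes. In the same comparison *Slamf7*, 1 of 10 other NK receptor genes tested, was lower at -0.68 (SE 0.12, edgeR adjusted p = 0.0272). Between the lines it was higher in E0771-Res2 (0.73, SE 0.11, edgeR adjusted p = 0.00109), where 3.98% of genes were called. In C1qa-low myeloid cells of E0771-Res2 against parental tumors *H2-T23*, 1 of 13 ligand genes tested, was lower (-0.33, SE 0.09, edgeR adjusted p = 0.0455). *Slamf7* was higher there (0.53, SE 0.13, edgeR adjusted p = 0.0264), with 1 higher and 1 lower of 9 other NK receptors. Of 9925 genes tested there, 6.05% were called. The other NK receptors gave 0 calls of 6 tested in NK cells between tumors, where 0% of genes were called. Against CD8 T cells 2 of 7 were higher and 4 lower in NK cells. There 11.9% of all genes were called and 6.88% were called higher. Genes can pass the filter on low counts through the class where they are high, so nothing is read from these counts. Among the lower genes were the inhibitory checkpoint receptors *Pdcd1* (-3.32), *Havcr2* (-2.45) and *Lag3* (-1.76) on the log2 scale.

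Genes of NK maturation and tissue residency also gave 0 calls of 11 tested in NK cells between tumors, and the ligands 0 of 7. No gene at all was called there (0% of 2376). Against CD8 T cells, 3 of 9 maturation genes were higher in NK cells and 3 lower, where 11.9% of all genes were called and 6.88% were called higher. Here too, genes can pass the filter through the class where they are high, so nothing is read from these counts or the median of the list. *Klf2*, a factor of circulating lymphocytes, was 2.37 higher, while *Cxcr6*, a chemokine receptor of tissue-resident lymphocytes, was lower at -2.31 and *Ikzf2* at -1.81 on the log2 scale. The median of the list was 0.44, beside -0.02 over all genes tested.

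The genes most alike to the receptors were ranked over 38 profiles of mouse by class and 8053 genes, as a description. *Ncr1* was most alike to *Atp1b1* (Pearson r 0.93), *Klrb1f* (0.90) and *Car2* (0.90). *Klra8* was most alike to *Klra4*, *Ncr1* and *1700025G04Rik* (0.84 each). *Klrc1* was most alike to *Klre1* and *Klrd1* (0.96 each), and *Klrk1* to *Klrd1* (0.93), *B4galnt1* (0.92) and *Serpinb9* (0.91). The profiles share libraries, depth and the difference between classes.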

How the data were processed

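Single-cell RNA sequencing was analysed from 8 mice, and the third parental mouse of the series was not analysed here. The authors deposited 1 matrix of UMI counts (genes by cells) from each mouse, made by Cell Ranger 6.1.2 per the file headers on mm10 per the labels, after CD45+ cells of pooled mice were tagged with Cell Multiplexing Oligos. The counts are raw, and reads matching several genes are not told apart in them. Each mouse is 1 animal, so p-values measure the spread between mice.

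Cells with 500 to 6000 genes and under 10% mitochondrial counts were kept. T cells had at least 2 UMIs of *Cd3d*, *Cd3e* and *Trac*; CD8 T cells had *Cd8a* or *Cd8b1* and no *Cd4*, and other T cells neither *Cd8a* nor *Cd8b1*. NK cells had no *Cd3e*, *Trac* or *Cd8b1*, at most 1 *Cd3d* UMI, and at least 2 of *Nkg7*, *Gzma*, *Prf1*, *Eomes*, *Txk*, *Styk1*, *Xcl1* and *Il2rb* with at least 3 UMIs over them. Both had at most 2 UMIs over a set of myeloid genes that includes *Csf1r*, *Adgre1* and *Fcgr1* (a further gene of the set is not reported here). Remaining cells with at least 2 of these were C1qa-high macrophages at 10 or more *C1qa* UMIs per 10000, and C1qa-low myeloid cells below it if no T gene was counted. At the borders, 13 NK cells had exactly 2 gate genes (0 *Ncr1* UMIs) and 360 cells outside had 1 (6 *Ncr1* UMIs), and 679 macrophages had 10 to 20 *C1qa* UMIs per 10000 with 515 cells at 5 to 10.

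UMIs were summed per mouse and class (at least 10 cells), leaving 8652 mitochondrial, ribosomal and Gm genes out, and tested with edgeR 4.0.16 (R 4.3.3, TMM, filterByExpr, quasi-likelihood, Benjamini-Hochberg over all genes tested), with mouse as a block between classes. DESeq2 1.42.0 was an alternative. Positive shares were compared after thinning to 2000 UMIs (lymphocytes) or 2500 (myeloid cells), with exact permutation tests over mice (Python 3.11.15). Intervals cover counting error only. The fits were tested on simulated data. Scrublet (scanpy 1.11.5) called 53 cells, too few to be used, so doublets were kept; an alternative left out the top 5% of scores. Genes named were the receptor genes, the called genes of largest change in each list, and the 3 genes most alike to a receptor gene. The lists were the lectin-like family (24 genes), other NK receptors (12), adaptors and signalling (17), ligands (18), and NK maturation and tissue residency (20). Members and lists were chosen with earlier results of these data known. The C1qa-low tumor comparison, the exclusion of myeloid cells with NK or T gate genes, the minimum of 5 cells and the myeloid share tests were chosen after seeing the data.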

Additional observations from a re-analysis of the deposited data

How the results depend on the processing

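Calls among the 9 receptor genes were few, so single calls move them. Strict gates gave 1 call in NK cells between the resistant lines (*Klra8*, 1.84, edgeR adjusted p = 0.00499), against 0. The replicate block gave 1 in CD8 T cells between the resistant lines (*Klre1*, -1.38), and dropping the myeloid limit gave 1 in other T cells (*Ncr1*, -1.76). In all CD45+ cells, E0771-Res2 against parental had 2 calls with DESeq2, 4 with no filter on low counts, 2 with the replicate block and 2 without the highest Scrublet scores, and 0 to 4 when a mouse was left out (0 without either parental mouse, 4 without E0771-Res2 replicate 2). With no filter E0771-Res1 against parental had 1 call. The resistant lines differed in 1 with no filter, 1 with the block and 0 to 2 with a mouse left out. CD8 T against other T cells had 8 calls with no filter. Calls over all genes also rose with no filter in the tumor comparisons given below. The share of all genes called is not given here for each setting, so nothing is read from these counts. The NK share difference turned to 0.0756 percentage points without the myeloid limit (exact permutation p = 0.857). Leaving out a mouse moved *Klrk1* in C1qa-high macrophages from -1.51 to -1.05 for E0771-Res1 and from -0.25 to 0.17 between the resistant lines, and its share difference from -10.1 to -7.51 points. The cause of these shifts was not tested.

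The deviations of mice from the mean of their group were correlated between groups. For same-numbered mice r was -0.0818 to 0.144, over 0.1 in 3 of 7 pairs. For differently numbered mice it was -0.121 to 0.0837, over 0.1 in 0 of 14 pairs. Deviations within a group offset each other: parental replicates 1 and 3 had r of 0.118 and -0.118 with E0771-Res1 replicate 1. The pairs are therefore not independent, and nothing is read from these counts. Whether the numbers pair the mice was not tested, and the main fits between tumors did not pair them. With the replicate block *Klrk1* in C1qa-high macrophages was -1.18 (edgeR adjusted p = 0.0096) for E0771-Res1 and -1.29 (adjusted p = 0.00189) for E0771-Res2, and *Klrd1* in E0771-Res1 was lost (-1.15, adjusted p = 0.0525).

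With no filter on low counts, genes called in C1qa-high macrophages were 400 against 91 for E0771-Res1, 638 against 261 for E0771-Res2 and 764 against 381 between the lines (222 with DESeq2). In all CD45+ cells they were 243 against 4 (65 with DESeq2), 977 against 492 and 928 against 475. In NK cells they were 37, 18 and 18 against 0, in CD8 T cells 33, 11 and 9 against 3, 1 and 0, and in other T cells 32, 51 and 25 against 0, 7 and 2. NK cells numbered 10 to 38 per mouse, and parental tumors came from 2 mice.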
